A study of Sus scrofa with 48 samples.

Results

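Circular RNAs (circRNAs) of the gene UBAP2 were examined in seminal plasma extracellular vesicles (SPEVs) of boars. Of the 17379 circRNAs in the deposited table, 24 came from UBAP2, and the 11 described first start or end at one of 4 splice sites of that gene on chromosome 10. Those sites were selected on the mean level of their circRNAs over all 24 libraries, so the levels below are a description and their height was not tested. Each library held total RNA of SPEVs from 1 male Yorkshire boar, named large white in the paper. All boars were sexually mature and 14 to 36 months old. There were 12 boars of high sperm motility (H group, mean total motility 0.94) and 12 of low sperm motility (L group, 0.40). The vesicles were pelleted from seminal plasma by ultracentrifugation. RNA of vesicles from different glands and from germ cells is mixed in such a pellet, so that more vesicles of one source and more RNA per vesicle cannot be told apart.

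A circRNA forms when the spliceosome joins the end of an exon back to the start of the same or an earlier exon, which leaves a closed ring without a cap or a tail. Reads that cross this back-splice junction identify the ring, and each pair of start and end is counted as its own isoform. UBAP2 (ubiquitin-associated protein 2) carries a ubiquitin-associated (UBA) domain, a small fold that binds ubiquitin, and both it and its relative UBAP2L have been found in stress granules, the cytoplasmic bodies in which stalled mRNAs gather with RNA-binding proteins.

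UBAP2 (ENSSSCG00000010987) lies on the plus strand of chromosome 10 from 32755707 to 32897260 in Sscrofa11.1. Its transcript variant X1 has 27 exons, and the circRNAs are named here by the first and the last of these exons that their ends match. Exon 2, from 32800584 to 32800723, holds the start codon, with 41 bases of it ahead of the coding sequence. Exon 3 runs from 32817449 to 32817526, exon 4 from 32819044 to 32819154, exon 5 from 32824648 to 32824801 and exon 6 from 32827007 to 32827084. The rule took the starts of exons 2 and 3 and the ends of exons 5 and 6. All 24 UBAP2 circRNAs had both ends on annotated exon edges, and none reached exon 1 or any exon after exon 15.

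**Figure D1:**
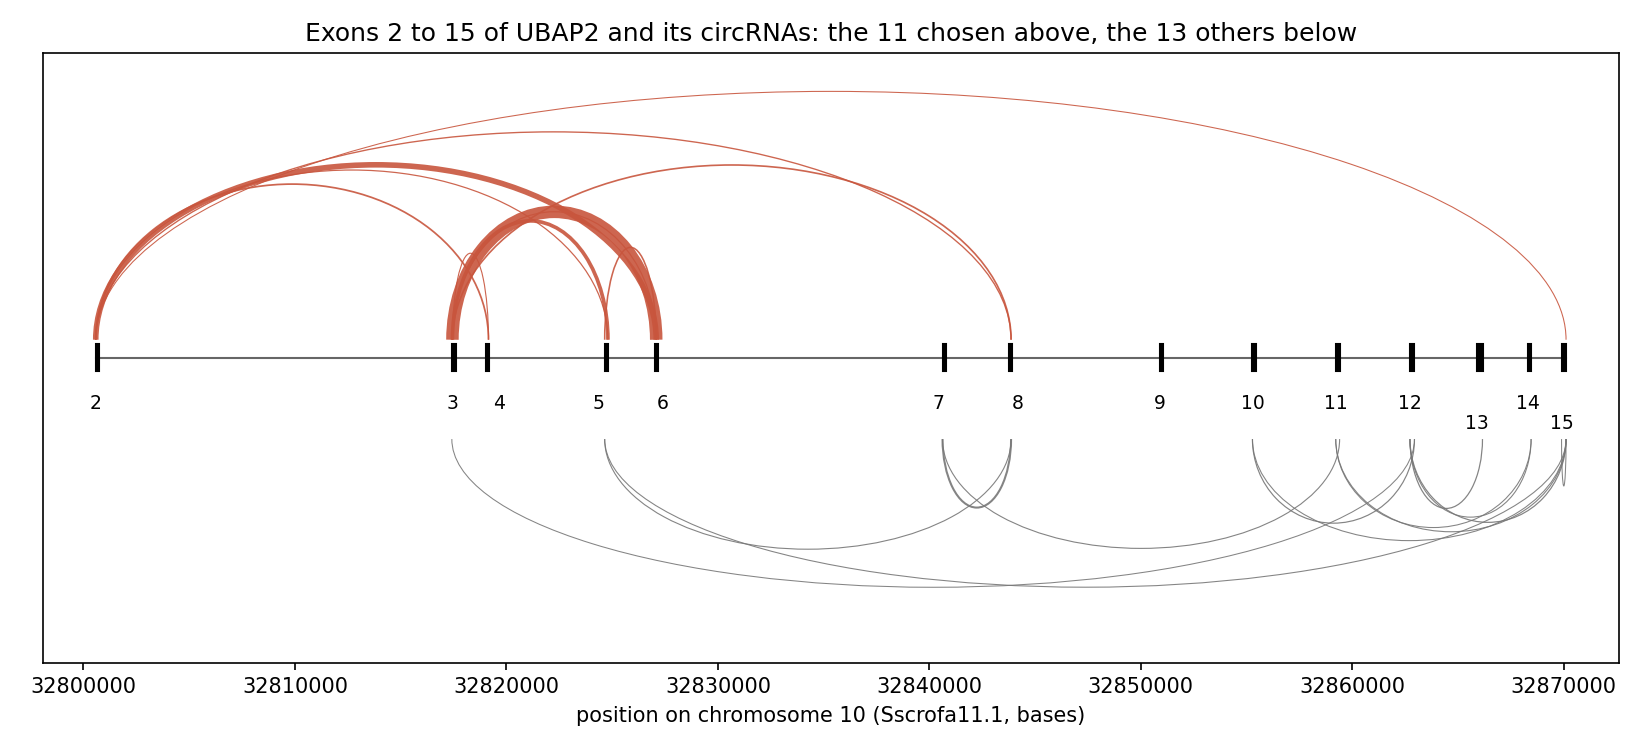
Position of UBAP2 exons 2 to 15 (black marks, widened to be visible) and of the 24 circRNAs of the gene on chromosome 10 of Sscrofa11.1. Each arc joins the start and the end of 1 circRNA, the 11 chosen ones above and the 13 others below, and the line width follows the mean RPM over 24 libraries, from 0.562 RPM to 4260 RPM for E3-E6.

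The start of exon 3 was used by 4 circRNAs and the end of exon 6 by 4. The start of exon 2 was used by 5 and the end of exon 5 by 2. In the whole table, 2790 starts and 2856 ends were shared by more than 1 circRNA, with a median of 2 circRNAs at each. At least 4 circRNAs met at 236 of these starts (8.46%) and 252 of the ends (8.82%). Junction reads at the 4 selected UBAP2 sites went mostly to 1 isoform. E3-E6 took 76.3% of all reads at the start of exon 3 and 66.8% at the end of exon 6, and E2-E6 took 75.7% at the start of exon 2. E3-E5 took 91.1% at the end of exon 5, with 2 circRNAs. At shared sites with at least 4 circRNAs, the leading isoform had a median share of 56.4% for starts and 54.9% for ends. At UBAP2 sites that were not selected, this share was 48.6% at the end of exon 8 (4 circRNAs) and 60.5% at the end of exon 15 (6 circRNAs). Where 2 or 3 circRNAs met, it ran from 63.5% at the start of exon 12 to 99.2% at a start upstream of exon 3, 32817421. Since the 4 sites were selected on level, their shares are a description, and whether they stand out was not tested.

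The libraries held 128644 to 610615 junction reads, and the median was 280608 for H boars and 297976 for L boars. Levels are given as RPM, the reads of a junction per 1000000 circRNA junction reads of the library. At 3 reads, this depth can show a level of 4.91 RPM in the deepest library and of 23.3 RPM in the shallowest, which covers counting error only, since junction reads are not unique molecules. The 4 libraries with the most circRNAs, L3, L8, L11 and L12, all belonged to the L group, and the fold change of E3-E6 without them is given below.

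E3-E6, which joins the end of exon 6 to the start of exon 3 and spans 4 exons of 421 nt in all, was the leading UBAP2 circRNA in each of the 24 libraries. Its level in the H group was 875 RPM in the lowest, 3303 RPM in the median and 5362 RPM in the highest library. In the L group the lowest was 2257 RPM, the median 4916 RPM and the highest 10813 RPM. The groups overlapped in part: H1, H2 and H11 lay below every L library, and L1, L2, L4, L6 and L7 above every H library. H1 was the lowest of all and L1 the highest. The means were 3537 ± 1422 RPM in H boars and 4983 ± 2342 RPM in L boars (SD, n = 12 each). Within single libraries E3-E6 had a median rank of 12.5 among all circRNAs, reached rank 1, and stood at rank 423 in H1. Of the 40 circRNAs with reads in every library, 2 came from UBAP2, E3-E6 and E2-E6. Their coefficients of variation over 24 libraries were 47.7% and 63.7%, and those of all 40 had a median of 52.1%.

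E2-E6 has the same end and starts 1 exon further upstream, so that its 561 nt take in the start codon. Its level in the H group was 267 RPM in the lowest, 1628 RPM in the median and 3177 RPM in the highest library. The L group ran from 177 RPM over a median of 1568 RPM to 3911 RPM. The groups overlapped apart from L2, L7 and L8, above every H library, and L9, the lowest of all, in which E3-E6 still had 3316 RPM. The means were 1563 ± 854 RPM in H boars and 1813 ± 1286 RPM in L boars (SD, n = 12 each). E3-E6 was above E2-E6 in 24 of 24 libraries, with a ratio of their means of 2.52.

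E3-E5 keeps the start of exon 3 and ends 1 exon earlier than E3-E6, at 343 nt. It had reads in 10 H libraries and 11 L libraries. In the H group the lowest was 0 RPM, the median 914 RPM and the highest 2174 RPM. In the L group the lowest was 0 RPM, the median 772 RPM and the highest 4695 RPM, in L7. Apart from L7 the groups overlapped. The libraries without a read were H1, H2 and L1, and wherever E3-E5 was found it had at least 60 reads. The means, 921 ± 672 RPM and 1052 ± 1213 RPM (SD, n = 12 each), lay below those of E2-E6 by less than 1 SD, and E2-E6 was the higher of both in 18 of 24 libraries. The order of E3-E6 before these 2 therefore held in each library, and the order between these 2 did not.

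**Figure D2:**
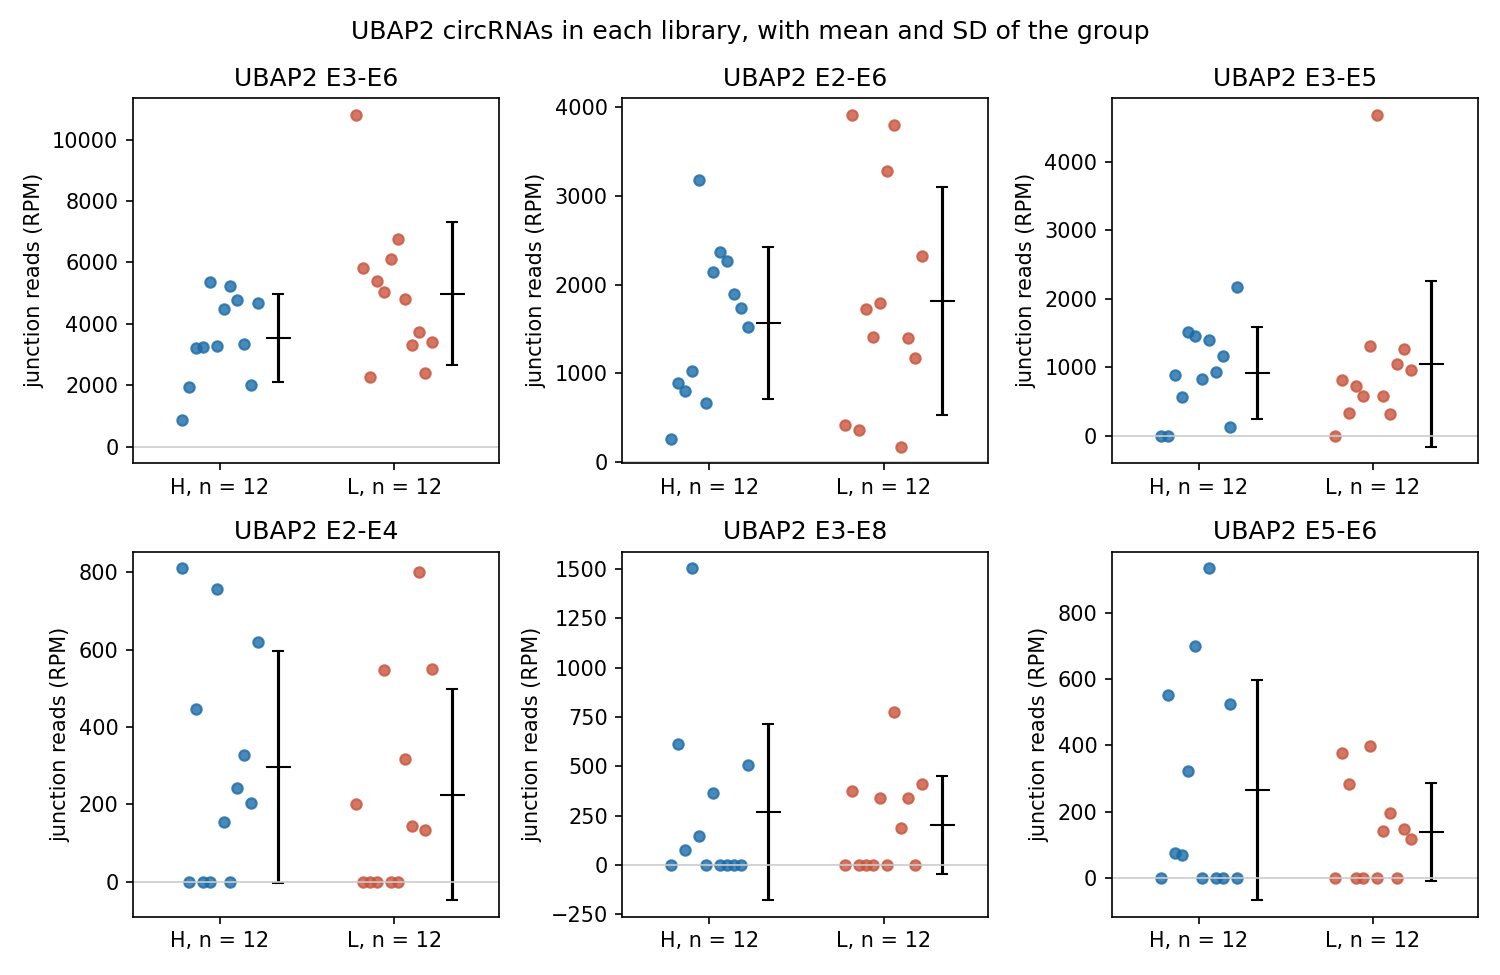
Junction reads of the 6 chosen UBAP2 circRNAs found in at least 12 libraries, in RPM, with 1 point for each of 12 H and 12 L libraries and the mean and SD of each group beside them. E3-E6 lies between 875 and 10813 RPM and is above 0 in every library, whereas E2-E4, E3-E8 and E5-E6 are at 0 in 9 to 12 of the 24, so that their SD bars reach 0 or below.

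A further 3 isoforms were found in at least 12 libraries. E2-E4, of 329 nt, had reads in 8 H and 7 L libraries and means of 297 ± 300 RPM in H boars and 225 ± 273 RPM in L boars (SD, n = 12 each). Its values ran from 0 RPM over a median of 222 RPM to 810 RPM in H boars and from 0 RPM over 139 RPM to 800 RPM in L boars. In H1, where E3-E6 was lowest, E2-E4 was at its highest. E3-E8 runs past exon 6 to the end of exon 8 (580 nt) and had reads in 6 libraries of each group. Its values ran from 0 RPM over a median of 36.8 RPM to 1503 RPM in H boars and from 0 RPM over 93.0 RPM to 777 RPM in L boars. The means were 267 ± 447 RPM and 202 ± 250 RPM (SD, n = 12 each), and the H mean rested largely on H4, with 1503 RPM. E5-E6 joins only 2 exons (232 nt), with reads in 7 libraries of each group. Its values ran from 0 RPM over a median of 71.1 RPM to 935 RPM in H boars and from 0 RPM over 130 RPM to 399 RPM in L boars, with means of 264 ± 333 RPM and 138 ± 149 RPM (SD, n = 12 each). The mean levels of these 3 isoforms lay within 1 SD of each other. In each the groups overlapped from 0 upward. All 3 were either at 0 or well above the floor, with at least 26, 26 and 17 reads wherever they were found.

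The remaining 5 chosen circRNAs had reads in 1 to 8 libraries. The most abundant of them by mean level was E2-E8 (720 nt), with 117 ± 312 RPM (SD, n = 24) and reads in 2 H and 5 L libraries. Its mean rested on H8, with 1486 RPM. E3L-E6, in 3 H and 5 L libraries, begins at the upstream one of a pair of 3′ splice sites of exon 3 and had 78.5 ± 133 RPM (SD, n = 24), so that E3-E6 was above it in 24 of 24 libraries. E2-E5 had reads in 1 H and 3 L libraries, E3-E4 in 1 H and 4 L libraries, and E2-E15, the widest, in L11 alone. Together the 11 chosen circRNAs carried 90.9 ± 6.40% of the UBAP2 junction reads of a library in H boars and 92.1 ± 7.33% in L boars (SD, n = 12 each).

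Whether levels differed with sperm motility was tested across the table, since the selection did not use the contrast of the groups. For the 980 circRNAs with reads in at least 12 of the 24 libraries, edgeR's quasi-likelihood test called 0 (0%) at an adjusted p under 0.05. An unadjusted P under 0.05 was reached by 4 (0.408%), all higher in L boars and all past the fold limits of the study, 1.5 upward and 0.67 downward. Of the 11 chosen UBAP2 circRNAs 6 could be tested, and 0 were called under either limit. DESeq2 called 0 of the 980 after adjustment, and 13 met the limits of the study with it. The SE of the log2 fold change had a median of 1.36 over all 980, so that 0 calls do not show equal levels. For E3-E6 the log2 fold change of L over H was 0.50 (SE 0.32, 95% interval -0.12 to 1.13, P = 0.115, adjusted p = 1.00 by the edgeR quasi-likelihood test), beside a median of 0.16 over all 980. Without L3, L8, L11 and L12 it was 0.62 (P = 0.0788, adjusted p = 0.999). With DESeq2 it was 0.37 (Wald test, P = 0.169). For E2-E6 the log2 fold change was 0.30 (SE 0.54, interval -0.75 to 1.36, P = 0.572), and for E3-E5 it was 0.20 (SE 0.78, interval -1.34 to 1.74, P = 0.797). That of E2-E6 was 0.075 without L3, L8, L11 and L12 and 0.054 without L8 alone. Without L7 alone, that of E3-E5 turned to -0.20. The intervals of the 3 rarer isoforms were wider: E2-E4 had -0.16 (-3.00 to 2.67), E3-E8 -0.013 (-2.99 to 2.96) and E5-E6 -0.81 (-3.76 to 2.14). All 6 had an adjusted p of 1.00. The SE of E3-E6 was among the smallest of all circRNAs tested, with 973 above it.

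Detection was compared for all circRNAs, which takes in those too rare for the count test. A two-sided Fisher's exact test compared how many H and L libraries had reads. It reached an unadjusted P under 0.05 for 133 of 17379 circRNAs (0.765%), 128 of them found in more L libraries, and an adjusted p under 0.05 for 0 (0%). The 17379 take in circRNAs found in too few or too many libraries to reach this limit. L libraries also held more circRNAs of any gene, 2767 ± 1356 against 1967 ± 541 in H libraries (mean and SD, n = 12 each). Of the 11 chosen circRNAs, 0 had an unadjusted P under 0.05, but 5 of them (E3-E6, E2-E6, E3-E5, E2-E5 and E2-E15) were found in too many or too few libraries to reach it whatever their split. The smallest P among them was that of E3-E4 (1 of 12 H and 4 of 12 L libraries, P = 0.317). With reads in 5 libraries this test cannot give a P below 0.0373, and with reads in 4 libraries, as for E2-E5, not below 0.0932. The numbers of UBAP2 circRNAs found in a library were 3 to 9 in the H group, with a median of 7.5, and 4 to 16 in the L group, with the same median. The highest of these, 16, 13 and 13, were those of L12, L8 and L11.

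Isoform choice was compared as the share of reads that the less abundant circRNA of a pair took from both, which does not depend on library depth. Among all circRNAs, 215 pairs shared a start or an end and had reads of each circRNA in at least 12 libraries. Of these, 7 (3.26%) had an unadjusted P under 0.05 for L against H and 0 (0%) an adjusted p under 0.05, by two-sided permutation tests with 100000 resamples. UBAP2 gave 8 such pairs, of which 0 passed either limit.

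At the end of exon 6, back-splicing reached exon 3 most often, then exon 2 and exon 5, and the longer form of exon 3 in 8 libraries. E2-E6 took 29.6 ± 8.26% of the reads of E2-E6 and E3-E6 in H boars and 25.8 ± 13.3% in L boars (SD, n = 12 each). The H libraries ran from 16.9% over a median of 31.4% to 46.3% and the L libraries from 3.74% over 25.7% to 44.1%. The share was under 50% in each library, and those of L1 and L9, the lowest, stood apart from the rest. The difference of -3.86 percentage points was smaller than the spread between boars (permutation test, P = 0.402, adjusted p = 0.957). Without L1 it was -1.86. E5-E6 took 7.13 ± 8.99% of the reads of E5-E6 and E3-E6 in H boars and 3.41 ± 3.60% in L boars (SD, n = 12 each, P = 0.203, adjusted p = 0.957). Against E2-E6, its shares were 13.7 ± 17.5% and 11.9 ± 17.9% (SD, n = 12 each, P = 0.799, adjusted p = 0.957).

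At the start of exon 3, most rings closed from exon 6, then from exons 5 and 8, and from exon 4 in 5 libraries. E3-E5 took 17.1 ± 10.7% of the reads of E3-E5 and E3-E6 in H boars and 17.0 ± 11.5% in L boars (SD, n = 12 each). The H libraries ran from 0% over a median of 18.7% to 31.7% and the L libraries from 0% over 12.6% to 41.0%. The groups overlapped apart from L7 and L11, which lay above every H library (difference -0.146 percentage points, permutation test, P = 0.973, adjusted p = 0.983). E3-E8 took 6.49 ± 10.6% of the reads of E3-E8 and E3-E6 in H boars and 4.14 ± 4.92% in L boars (SD, n = 12 each, P = 0.503, adjusted p = 0.957). Beside E3-E5, it took 21.7 ± 34.0% and 18.3 ± 19.8% (SD, n = 11 each, P = 0.785, adjusted p = 0.957). In H2 E3-E8 had 141 reads and E3-E5 none, which is a share of 100%.

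At the start of exon 2, ends at exon 6 and then at exon 4 had the most reads of the 5 ends used. E2-E4 took 19.6 ± 24.3% of the reads of E2-E4 and E2-E6 in H boars and 14.9 ± 16.6% in L boars (SD, n = 12 each, P = 0.596, adjusted p = 0.957). The H libraries ran from 0% over a median of 10.1% to 75.2% and the L libraries from 0% over 9.01% to 44.7%. H1 and H6 were the libraries in which E2-E4 exceeded E2-E6. E3-E8 also shared its end with E7-E8, a circRNA outside the chosen sites, and took 31.8 ± 31.2% (n = 8) and 39.6 ± 41.3% (n = 10) of the reads of both (SD, permutation test, P = 0.662, adjusted p = 0.957).

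**Figure D3:**
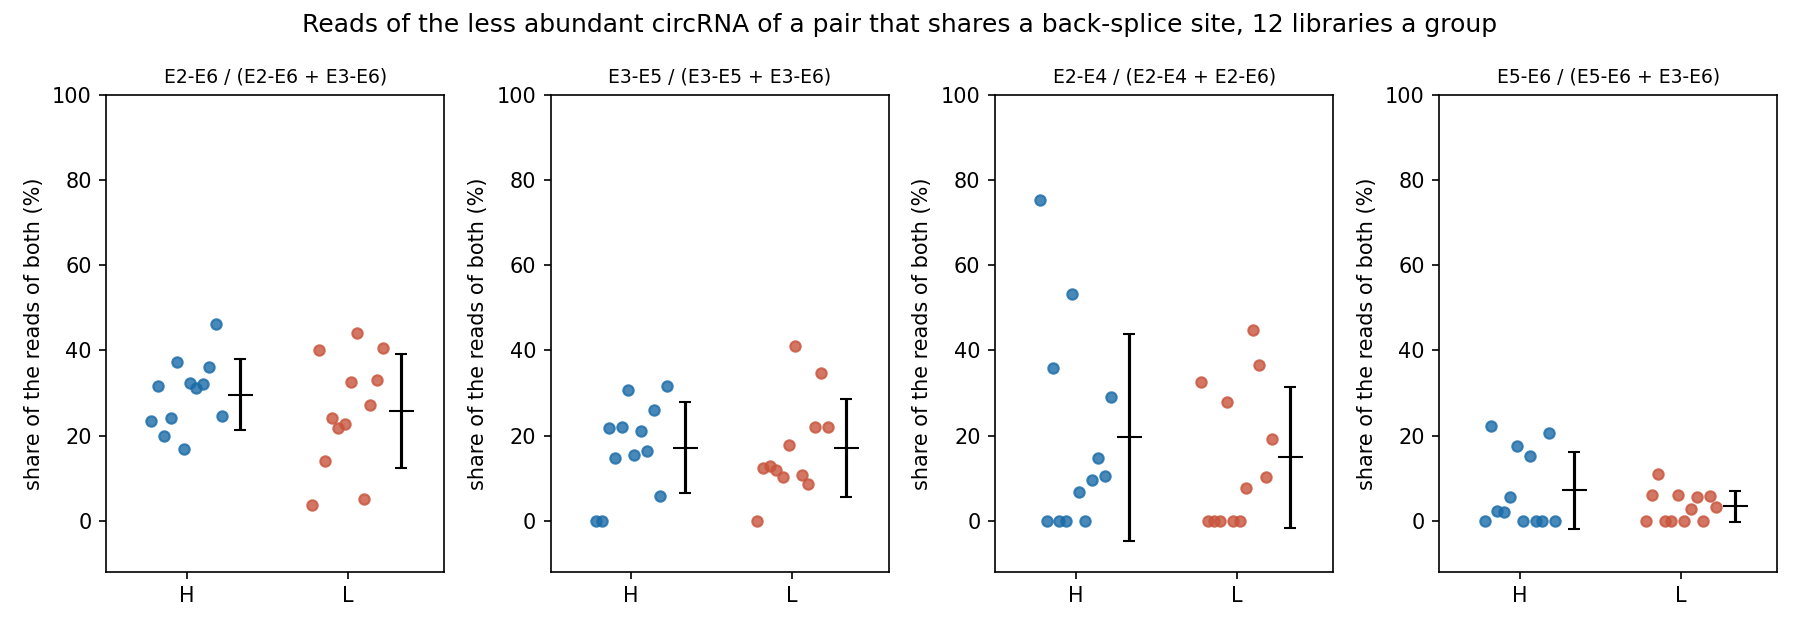
Share, in %, that the less abundant circRNA took of the reads of a pair sharing a back-splice site, with 1 point for each of 12 H and 12 L libraries and the mean and SD of each group. The share of E2-E6 beside E3-E6 stays below 50% in every library, and that of E2-E4 beside E2-E6 reaches 75.2% in H1.

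Isoforms of 1 site need not vary together between boars. Correlations of log2(RPM + 1) over 24 libraries were computed for the same 215 pairs, whose 2 values share a library and its total. An unadjusted permutation P under 0.05 was found for 17 pairs (7.91%) and an adjusted p under 0.05 for 1 (0.465%), with a median r of 0.0617. Of the 8 UBAP2 pairs 1 had an unadjusted P under 0.05 and 0 passed after adjustment. This pair was E2-E6 with E3-E6, with Pearson's r = 0.464 (P = 0.0234, adjusted p = 0.509) and Spearman's rho = 0.577 (P = 0.00335, adjusted p = 0.134). In RPM without the logarithm, r was 0.329 (P = 0.116, adjusted p = 0.544), so that the unadjusted call depended on the scale. Leaving out H1 and L1, the 2 libraries farthest from the median of E3-E6, gave r = 0.585 (P = 0.00343, adjusted p = 0.147). Within the H group r was 0.815 (P = 0.00258, adjusted p = 0.185) and within the L group 0.261 (P = 0.412, adjusted p = 0.886).

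E3-E5 with E3-E6 gave r = 0.371 (P = 0.0791, adjusted p = 0.569) and rho = 0.387 (P = 0.0609, adjusted p = 0.504) over 24 libraries by permutation tests. In RPM, r was 0.280 (P = 0.150, adjusted p = 0.560). Without H1 and L1, r of log2(RPM + 1) was 0.623 (P = 0.00015, adjusted p = 0.0161), so that these 2 libraries decide whether it passes. How many of all pairs passed without their own 2 farthest libraries is not given, so this call has no background share beside it. L1 had the highest level of E3-E6 and no read of E3-E5, and H1 had the lowest level of E3-E6 and none of E3-E5 either. Within the H group r was 0.871 (P = 0.00026, adjusted p = 0.0559) and within the L group -0.440 (P = 0.168, adjusted p = 0.726). The negative sign in the L group rests on L1, the L library without a read of E3-E5. Whether the 2 groups differ in the relation of E3-E5 to E3-E6 was not tested. The other 6 pairs had r from -0.234 to 0.336 and adjusted p of at least 0.605.

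**Figure D4:**
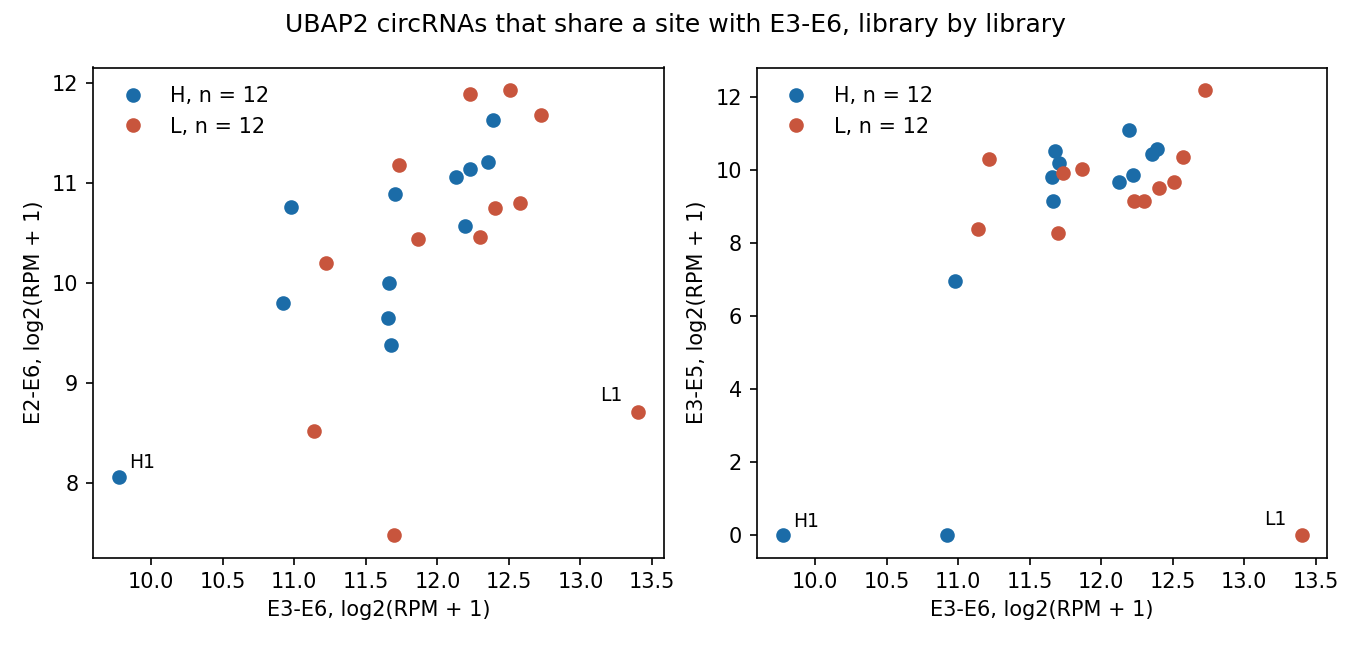
Level of E2-E6 (left) and E3-E5 (right) against that of E3-E6 in log2(RPM + 1), with 1 point for each of 12 H and 12 L libraries. Pearson's r over all 24 is 0.464 on the left and 0.371 on the right, and H1 and L1, the libraries farthest from the median of E3-E6, are marked.

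Of the 38 circRNAs of other genes with reads in all 24 libraries, those most alike in pattern to E3-E6 by Spearman's rho of log2(RPM + 1) included circRNAs of SUCO (rho 0.485), BAZ2B (0.470), PAN3 (0.423) and RRP15 (0.410). The rho of all 38 ran from -0.350 to 0.485, with a median of 0.0617. Pearson's r for SUCO was 0.540 over 24 libraries and 0.629 without H1 and L1. It was 0.746 in H boars and 0.215 in L boars.

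The 13 UBAP2 circRNAs at other sites used exons 3 to 15. E7-E8, of 159 nt, was the one with reads in at least 6 libraries, 8 in each group. Its level ran from 0 RPM over a median of 274 RPM to 1044 RPM in H boars and from 0 RPM over 311 RPM to 910 RPM in L boars, with means of 436 ± 432 RPM and 326 ± 309 RPM (SD, n = 12 each). Its log2 fold change of L over H was -0.23 (SE 1.29, adjusted p = 1.00 by the edgeR quasi-likelihood test). The other 12 had reads in 1 to 5 libraries each. Summed over isoforms, circRNAs whose ends enclose exon 4 made up 88.7 ± 7.80% of the UBAP2 junction reads of a library, those enclosing exon 7 9.92 ± 8.20% and those enclosing exon 12 3.07 ± 4.10% (SD, n = 24). Junction reads do not show which of the enclosed exons a ring keeps, so these shares and the lengths given above count all X1 exons between the ends.

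The junction sequences are shown because they are what tells isoforms with a common site apart. Each is written in the direction of the RNA from Sscrofa11.1, with the last 20 bases of the closing exon in lower case and the first 20 bases of the opening exon in capitals.
E3-E6, chr10:32817449-32827084: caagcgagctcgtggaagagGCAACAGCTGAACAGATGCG
E2-E6, chr10:32800584-32827084: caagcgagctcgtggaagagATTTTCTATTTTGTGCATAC
E5-E6, chr10:32824648-32827084: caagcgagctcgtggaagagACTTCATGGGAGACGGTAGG
E3-E5, chr10:32817449-32824801: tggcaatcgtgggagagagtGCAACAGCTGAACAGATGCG
E3-E8, chr10:32817449-32843863: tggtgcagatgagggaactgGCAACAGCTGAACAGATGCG
E2-E4, chr10:32800584-32819154: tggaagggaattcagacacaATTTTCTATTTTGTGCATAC
The first 3 share the end of exon 6 in lower case, and E3-E6, E3-E5 and E3-E8 share the start of exon 3 in capitals. In the genome, all 24 UBAP2 circRNAs had ag just before the start and gt just after the end, the bases of the usual splice sites.

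The windows of the 4 selected splice sites are printed with the exon bases in capitals. The pair of starts had 14 (exon 2) and 12 (exon 3) pyrimidines among the 18 bases before the ag.
Start of exon 2, chr10:32800564-32800591: ccatgtttactctcttgcagATTTTCTA
Start of exon 3, chr10:32817429-32817456: caattgtacgtgctttccagGCAACAGC
End of exon 5, chr10:32824794-32824811: GAGAGAGTgtaagtacag
End of exon 6, chr10:32827077-32827094: TGGAAGAGgtgagtcaga

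Exon 3 has 2 annotated 3′ splice sites, at 32817421 and 32817449, which lie 28 bases apart. The upstream one opens E3L-E6, whose length is then 449 nt. The bases that only the longer form of the exon keeps are in capitals here, between intron and shared exon in lower case.
Start region of exon 3, chr10:32817406-32817468: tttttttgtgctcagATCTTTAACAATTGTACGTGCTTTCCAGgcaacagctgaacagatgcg
Reads of E3L-E6 came to 707 over all libraries, beside 31613 of E3-E6. Among the 13 annotated UBAP2 transcripts, 8 carry exon 3 from the downstream site.

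Of the 6 isoforms found in at least 12 libraries, E2-E6 was the one whose length is a multiple of 3. E3-E6, E3-E5, E3-E8 and E5-E6 each leave a remainder of 1, and E2-E4 leaves 2. No reading frame or translation of a ring was tested.

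Introns that flank a circRNA often hold inverted repeats, which can pair and bring both splice sites together. Intron 1, upstream of exon 2, has 44461 nt, intron 2, upstream of exon 3, has 16725 nt and intron 6, downstream of exon 6, has 13537 nt, beside a median of 2487 nt for the 26 introns. Between introns 2 and 6, which flank E3-E6, the longest reverse complementary match found with blastn had 509 nt at 67.2% identity, at rank 7 of the 325 pairs of an upstream and a downstream UBAP2 intron. The best-scoring match of this pair had 291 nt at 93.1% identity and rank 5. Introns 1 and 6, which flank E2-E6, gave a longest match of 492 nt at 72.6% identity (rank 8) and a best-scoring one of 273 nt at 91.2% (rank 20). For introns 2 and 5, around E3-E5, both were the same match of 277 nt at 88.1% identity, at rank 63 by length and 33 by score. Rare circRNAs had introns of such ranks too: E3L-E6 has the same introns as E3-E6, the introns around E2-E15, found in 1 library, were at rank 1 by length and 7 by score, and those around a circRNA outside the chosen sites, found in 3 libraries, at ranks 3 and 4. A match was found for 144 of the 325 pairs. The pairs around E2-E6 and E3-E6 were also at ranks 2 and 26 by the summed length of their introns, and the part of intron length in these ranks was not tested. Repeat masking in the reference covered 97.9% and 95.5% of the 2 sides of the longest match around E3-E6.

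Genes with a UBA domain and genes of stress granule proteins were described as lists. Of 30 UBA domain genes 19 had circRNAs, 109 in all, of which 11 could be tested and 7 were those of UBAP2. Among these 11, 0 passed the edgeR test after adjustment and 4 had a log2 fold change above 0, with a median of -0.032. Over all 980 circRNAs tested, 592 (60.4%) were above 0, with a median of 0.16. The 3 with the highest mean level were E3-E6, E2-E6 and E3-E5. The 4 tested circRNAs of other genes had a median of -0.11. UBAP2L had 9 circRNAs, each in at most 4 libraries, so that 0 could be tested. Summed, they came to 142 ± 294 RPM in H boars and 140 ± 184 RPM in L boars (SD, n = 12 each) and were at 0 in 12 of 24 libraries. The H mean rested mostly on H12 (892 RPM) and H1 (613 RPM).

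Of 26 stress granule genes 19 had circRNAs, 104 in all. Of the 6 that could be tested, 0 passed and 5 had a log2 fold change above 0, with a median of 0.42, beside the 60.4% above 0 and the median of 0.16 of all tested. The most abundant included those of CAPRIN1, a partner of the granule protein G3BP1 (959 RPM, log2 fold change 0.56, SE 0.80), and TIA1, a nucleator of granules (528 RPM, 0.36, SE 1.13). Both fold changes were smaller than their SE.

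Marker genes of possible sources of the vesicles were followed through their circRNAs. For male germ cells 9 of 14 genes had circRNAs, 32 in all, with a sum of 736 ± 462 RPM in H boars and 496 ± 571 RPM in L boars (SD, n = 12 each). The most abundant was one of SYCP1, a protein of the synaptonemal complex, in 2 libraries, and ODF2, AKAP4, CATSPER1, PRM1 and TNP1 had none. For epididymal and gland epithelium 3 of 7 genes had circRNAs, 17 in all, with 1425 ± 1238 RPM and 1271 ± 750 RPM (SD, n = 12 each), mostly of EPCAM, an epithelial adhesion protein (823 RPM, in 19 libraries). For leukocytes 1 of 5 genes, CD44, had circRNAs, found in 1 library. The sums ranged from 80.2 to 1766 RPM (H group) and 0 to 1681 RPM (L group) for germ cells, and from 0 to 3616 RPM and 346 to 2670 RPM for epithelium. Their part in the UBAP2 levels was not tested.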

How the data were processed

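The table used holds junction read counts as deposited by the authors, 1 column per boar of the long RNA libraries, for circRNAs that find_circ and CIRI2 both found. The submitters' processing notes name cutadapt, FastQC, Bowtie and susScr11. Columns were matched to libraries by title, and 0 were without a library. The lowest value above 0 was 2 reads, and 0 pairs of libraries were identical. For circRNAs with reads in at least 12 of 24 libraries, edgeR 4.0.16 under R 4.3.3 tested L against H (TMM, quasi-likelihood, no covariate). The filter did not look at the group. DESeq2 1.42.0 was an alternative. Adjustment followed Benjamini and Hochberg, over every circRNA or pair tested. Permutation tests used Python 3.11.15 with NumPy 2.4.6 and 100000 resamples, and Fisher's exact tests SciPy 1.17.1. Exons came from NCBI Annotation Release 106 on Sscrofa11.1, the same build, and inverted matches from blastn 2.17.0. The members and lists were chosen with earlier results of these data known. RPM divides by all junction reads of the library, and 3 reads were taken as the floor. Members found in at least 12 libraries were described singly, other UBAP2 circRNAs if found in at least 6, then up to 5 of other genes most alike in pattern and up to 3 per list. Figures used matplotlib 3.10.9. The small RNA libraries were not used here.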

Additional observations from a re-analysis of the deposited data

How the results depend on the processing

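Levels of E3-E6 and E2-E6 came to 7849 and 3108 RPM with reads on circRNAs found in at least 12 libraries as the total. The other 4 were higher as well, at 1818 (E3-E5), 495 (E2-E4), 437 (E3-E8) and 388 RPM (E5-E6), a move of less than 1 SD since their SDs are near or above their means. All 6 moved by less than 1 SD as TMM-scaled CPM.

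The count of circRNAs passing the test was 0 with DESeq2 size factors, TMMwsp, library totals, filterByExpr, DESeq2 and a replicate block, and without each library in turn. It was 20 of 2793 with reads in at least 6 libraries and 10484 of 17379 without a filter. In the fit without a filter 1 chosen UBAP2 circRNA passed, E2-E15, which had reads in L11 alone. By the study's limits 4 met them, against 13 with DESeq2, 47 with reads in at least 6 libraries, 10517 without a filter, 23 with the replicate block, and 3 to 7 without each library in turn. In earlier trials on simulated and permuted data, the test without a filter called most of the unchanged circRNAs. Its 10484 and 10517 calls are therefore not read as differences. Why the other counts differed was not tested. Libraries with the same number were from different boars in H and L. Their deviations correlated at -0.0428 to 0.193, over 0.1 in 1 of 12 pairs, and 1 H library correlated best with its own number.

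E3-E6, E2-E6 and E5-E6 kept the sign of their log2 fold change in all 33 alternatives, but that of E2-E6 came to 0.075 with DESeq2 and also without L3, L8, L11 and L12. Without a filter the log2 fold change of E2-E4 was 0.086 and that of E3-E8 0.21, and E3-E8 had 0.067 with reads in at least 6 libraries. E7-E8 had 0.30 with the replicate block. Without single libraries, the log2 fold change ran from -0.52 to 0.080 for E2-E4, from -0.20 to 0.37 for E3-E5, from -0.60 to 0.67 for E3-E8, from 0.054 to 0.45 for E2-E6, from 0.38 to 0.58 for E3-E6, from -1.04 to -0.47 for E5-E6 and from -0.55 to -0.0081 for E7-E8.

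Of the pairs, 0 passed in share, against 1 of 215 with at least 20 reads on the pair and 0 to 1 without single libraries. The replicate block, with signs exchanged within paired numbers, gave 0. The difference of E3-E5 against E3-E6 was 0.18 as a log2 ratio and ran from -2.33 to 1.40 percentage points without single libraries. That of E2-E4 against E2-E6 ran from -7.38 to 0.394, of E5-E6 against E2-E6 from -5.54 to 1.55, of E3-E8 against E3-E5 from -7.36 to 4.40, of E2-E6 against E3-E6 from -5.53 (without L8) to -1.86 (without L1), of E3-E8 against E3-E6 from -3.25 to -0.0707 (without H4), of E5-E6 against E3-E6 from -4.42 to -2.35, and of E3-E8 against E7-E8 from 1.06 to 13.4. No UBAP2 pair passed in share under these alternatives.

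Weak correlations changed sign. E5-E6 with E2-E6 had 0.0411 as rho, 0.0604 in RPM and 0.0493 within H. E3-E8 with E3-E5 had -0.0553 as rho and -0.128 in RPM, and E3-E8 with E3-E6 had -0.0149, -0.0995 and, within L, -0.0630. Within L, E3-E5 with E3-E6 had -0.440, a sign that rests on L1. E3-E8 with E7-E8 had -0.0234 within L, and within H, E5-E6 with E3-E6 had 0.0391. Without H1 and L1, r of E3-E5 with E3-E6 was 0.623 and passed, but the share of all pairs that passed in this way is not given. Detection gave 0 circRNAs with at least 5 reads too. Leaving out L3, L8, L11 and L12 and using rho were chosen after the values were seen. The SE of the log2 fold change was above 1 for E2-E4, E3-E8 and E5-E6, so that differences of either sign stay inside their intervals.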

Other observations

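L1 held reads of 3 chosen UBAP2 circRNAs, and E3-E6 made up 94.6% of them, beside 41.2% to 73.4% in the other 23 libraries. H1 also held 3, E3-E6, E2-E6 and E2-E4, and its UBAP2 circRNAs summed to 1952 RPM, the lowest of all libraries. The highest sum was 15400 RPM, in L7.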
